A study of Homo sapiens with 31 samples.

Results

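Circular RNAs (circRNAs) made from the genes of ubiquitin ligases and deubiquitinases were followed from human embryonic stem cells to day 90 of differentiation towards retina. A circRNA was included where the transcript it is named after belongs to a gene with one of the symbols USP, UBE2, UBE3, UBE4, UBR, CUL, FBXO, FBXL, FBXW, HECTD, HERC, TRIM or RNF in its GENCODE annotation. This gave 1755 circRNAs of 190 genes, among 55371 circRNAs of 8095 genes in all, and they held 31067 of the 1029205 back-splice reads. The rule goes by gene names and uses no measured value, though it was chosen with earlier results of these data known. A symbol is not always a function: USP6NL with 241 reads and USP39 with 42 reads carry the letters without being known as deubiquitinases, and 3 circRNAs came from non-coding RNAs, RNF217-AS1 and RNF32-DT.

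The cells were H9, an established human embryonic stem cell line, with no genetic change named in the labels. Total RNA was sequenced from 3 replicate cultures each at day 0, at day 45 and at day 90 without treatment, and from 3 each at day 45 and day 90 with recombinant human IGF-1 (insulin-like growth factor 1), given at 5 ng/ml up to day 37 and at 10 ng/ml after it. Whole cultures were harvested at each time, so a sample holds all cell types present. The value of a circRNA is the number of reads that cross its back-splice junction, where the end of an exon is joined to the start of the same or an upstream exon, and levels are given as RPM, back-splice reads per 1e+06 sequenced reads.

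Ubiquitin is attached to proteins by a chain of enzymes: an E1 activates it, an E2 carries it, and an E3 ligase passes it to the chosen substrate. HECT ligases take ubiquitin onto themselves first, whereas RING, TRIM and U-box ligases hold the E2 beside the substrate. Cullins are scaffolds that join a RING subunit to interchangeable substrate receptors, of which the F-box proteins are a large class, and UBR proteins recognise degradation signals such as destabilising N-terminal residues. USP enzymes remove ubiquitin again. The pathway turns over cell cycle and pluripotency regulators in stem cells and is used in neurons to remodel synapses and clear damaged proteins. A circRNA of such a gene lacks a free end and, unlike the mRNA, is degraded slowly, so its level need not follow that of the mRNA. The mRNA levels were not used here.

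The back-splice junctions of 9 of the 10 circRNAs with most reads are shown because they are what the reads were counted on. Each line gives 15 bases of the exon end (the donor side) in lower case followed by 15 bases of the exon start (the acceptor side) in capitals, on the strand of the gene, read from the GRCh37 genome, which has the coordinates of hg19. CircRNAs are written with the donor exon and then the acceptor exon, numbered as in the transcript each is named after.
circFBXW7:E3-E2 (chr4:153332455-153333681, minus strand): acaaaaacaacaaaaGATTACTTCCTTAGG
circUBE3A:E6-E2 (chr15:25650608-25657118, minus strand): tgaagctagccgaatGTTAAAAATCTGTAA
circRNF138:E4-E3 (chr18:29691717-29693823, plus strand): ttcagtagggaacagTTTCTGTAGAAAATG
circFBXO7:E2-E2 (chr22:32874968-32875262, plus strand): aatgacgacagtatgTTCTAATACCCGATT
circTRIM33:E4-E2 (chr1:115005726-115007010, minus strand): acacaaagaacatagTTGGTGTAATACGGT
circRNF13:E8-E2 (chr3:149563798-149639014, plus strand): ataaattcaagaaagGTGATTTTACAACGA
circFBXW4:E5-E2 (chr10:103427643-103436193, minus strand): cagcccattactcagGATGACCAGTGTCCC
circRNF138:E6-E3 (chr18:29691717-29704808, plus strand): cagatagttcctgtgTTTCTGTAGAAAATG
circFBXL17:E5-E3 (chr5:107521818-107684231, minus strand): gatcataaatgacagCTGGGCTCAAAATGC
The RNF138 circRNAs end in the same 15 capitals, since they share the acceptor of exon 3 and differ in the donor. circFBXO7:E2-E2 is a single exon closed on itself, and each of the others joins the end of a downstream exon back to the start of an upstream one. Each circRNA is counted on a single junction, so its length does not enter its level.

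Libraries held 14992 to 108946 back-splice reads, of which 473 to 3386 came from the ubiquitin genes. The reported RIN, a score of RNA integrity, was 9.8 to 10 at day 0, 7.6 to 9.1 at day 45 and 7.1 to 8.9 at day 90, so integrity fell along with the time compared, and its part in the results was not tested. The cell type labels could be checked on circRNA reads only. Of 13 pluripotency markers, 6 had any read, and their sum was 0.0499 to 0.0721 RPM at day 0 and at most 0.0227 RPM in every later library, while POU5F1, NANOG and SOX2 were at 0 throughout. Most of the 41 reads on the pluripotency list came from 1 gene: TERF1 had 30, SALL4 6 and LIN28B 2. Of 14 eye field and retina markers, 4 had reads, with 0 at day 0 and 0.00645 to 0.0457 RPM later, and PAX6, RAX and CRX were at 0. On this list RORB had 22 and ELAVL3 12 of the 39 reads. Markers of pigment epithelium (2 of 6 with reads), other neurons (3 of 6) and mesenchyme and muscle (6 of 8) were likewise at 0 at day 0 and reached 0.0529, 0.0682 and 0.0506 RPM in later libraries. Markers of endoderm and epithelium (2 of 6) summed to 0.00801 to 0.0856 RPM at day 0 and to 0 to 0.0299 RPM later, nearly all from EPCAM. The later libraries thus held reads of markers of several cell types, and in bulk samples of this kind fewer cells of a type and less RNA per cell cannot be told apart.

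The ubiquitin circRNAs were several times higher in differentiated cultures than in stem cells. Summed over all 1755, they came to 3.97, 3.32 and 4.44 RPM in the day 0 libraries, to 30.6, 19.2 and 18.1 RPM at day 45 and to 9.50, 15.5 and 18.3 RPM at day 90. With IGF-1 they came to 19.1, 20 and 18.4 RPM at day 45 and to 19.6, 13.7 and 17.3 RPM at day 90. Every later library lay above every day 0 library. The ratio of the group means to day 0 was 5.77 at day 45 and 3.69 at day 90, where all circRNAs together gave 6.33 and 4.11. Between libraries of the same replicate number, the ratio of day 45 to day 0 was 7.69, 5.77 and 4.06, and that of day 90 to day 0 was 2.39, 4.66 and 4.11, the lowest being from day 90 replicate 1, the later library with the smallest back-splice total.

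As a share of all back-splice reads the family was nearly level. It held 3.30% ± 0.173 (SD, n = 3) at day 0, 3.01% ± 0.0858 (SD, n = 3) at day 45, 2.99% ± 0.0897 (SD, n = 3) at day 90, and 3.11% ± 0.233 and 2.94% ± 0.0474 (SD, n = 3 each) with IGF-1 at day 45 and day 90. The 3 day 0 libraries gave 3.31%, 3.13% and 3.47%, and the 12 later ones between 2.87% and 3.33%, so the groups overlapped.

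**Figure D1:**
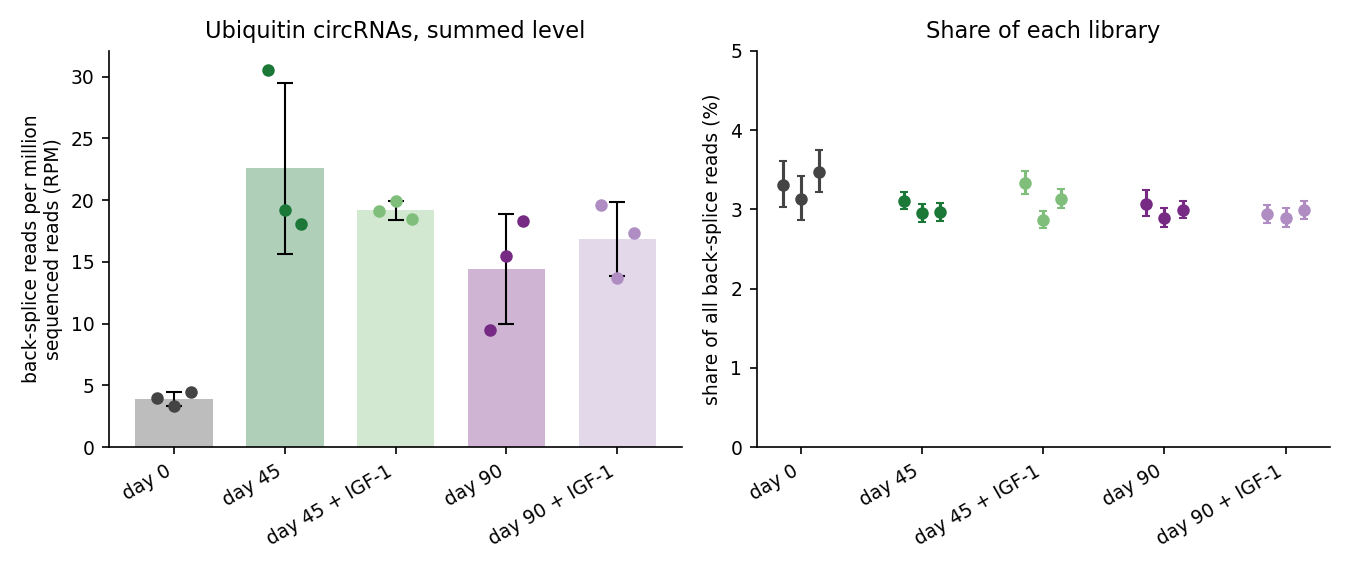
Left, summed level of the 1755 ubiquitin circRNAs in back-splice reads per 1e+06 sequenced reads (RPM), with bars for the group mean, error bars for the SD and a point per library (n = 3 per group). Right, their share of all back-splice reads in each library in percent, with 95% Wilson intervals that cover counting error only. The level is 3.32 to 4.44 RPM at day 0 and at least 9.50 RPM in each later library, while the share stays between 2.87% and 3.47%.

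Most of these circRNAs were rare. Of the 1755, 588 (33.5%) had 1 read in all 15 libraries together, against 36.1% of all circRNAs, and 46 (2.62%) were found in every library, against 2.34%. A day 0 library showed 200 to 238 of them and a later one 395 to 645. 1335 (76.1%) were found in later libraries only, against 77.5% of all circRNAs, and 41 at day 0 only, none of them with over 3 reads. At the other end, 53 circRNAs with at least 100 reads held 54.4% of the family's reads.

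Which members changed between day 0 and day 45 was asked of the 409 circRNAs of 137 genes with at least 10 reads over the 15 libraries. Of these, 157 rose, 1 fell and 251 did not pass the test (quasi-likelihood test of edgeR, run on the deposited counts of all 12498 circRNAs with as many reads, sequenced reads as library sizes, Benjamini-Hochberg adjusted p under 0.05). That is 38.4% higher and 0.244% lower, where the background over all circRNAs tested was 40.9% higher and 0.256% lower. The median log2 change was 2.70 for the family and 2.87 for all. Where a group had no read a fitted change depends on the software's prior, and with such circRNAs set at the bound that a limit of 3 reads per group allows, or left out where both groups were at or under it, the medians were 2.04 over 332 family members and 1.98 over 9987 circRNAs. Between day 0 and day 90, 81 rose (19.8%) and 2 fell (0.489%), against a background of 21.7% and 0.328%, with a median log2 change of 2.02 for the family and 2.33 for all, or 1.51 and 1.51 at the bound. Without day 0 replicate 2 the 83 calls at day 90 became 50. The comparisons with day 0 share the same 3 control libraries.

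These numbers are relative to sequenced reads, and so contain the rise of circRNA as a whole. Scaled instead by TMM factors on the back-splice totals, which compares a circRNA with the bulk of back-splice reads, the median log2 change of all circRNAs fell from 2.87 to 1.60 at day 45 and from 2.33 to 1.54 at day 90. That of the family was lower on this scale, at 1.18 and 1.08. These medians include circRNAs with no read in a group, where the fitted change depends on the prior. No bound was taken on this scale. In the family 23 circRNAs were then higher and 4 lower at day 45 (background 6.27% and 0.912%), and 25 higher and 3 lower at day 90 (background 5.9% and 1.04%). All 23 and all 25 were among the 157 and 81 above. The size factors of DESeq2 are another such scaling. Where either took away a call of a family circRNA or gene described here, or gave a change the other sign, at least 1 such value is given. It stands beside the call or in the section on processing.

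**Figure D2:**
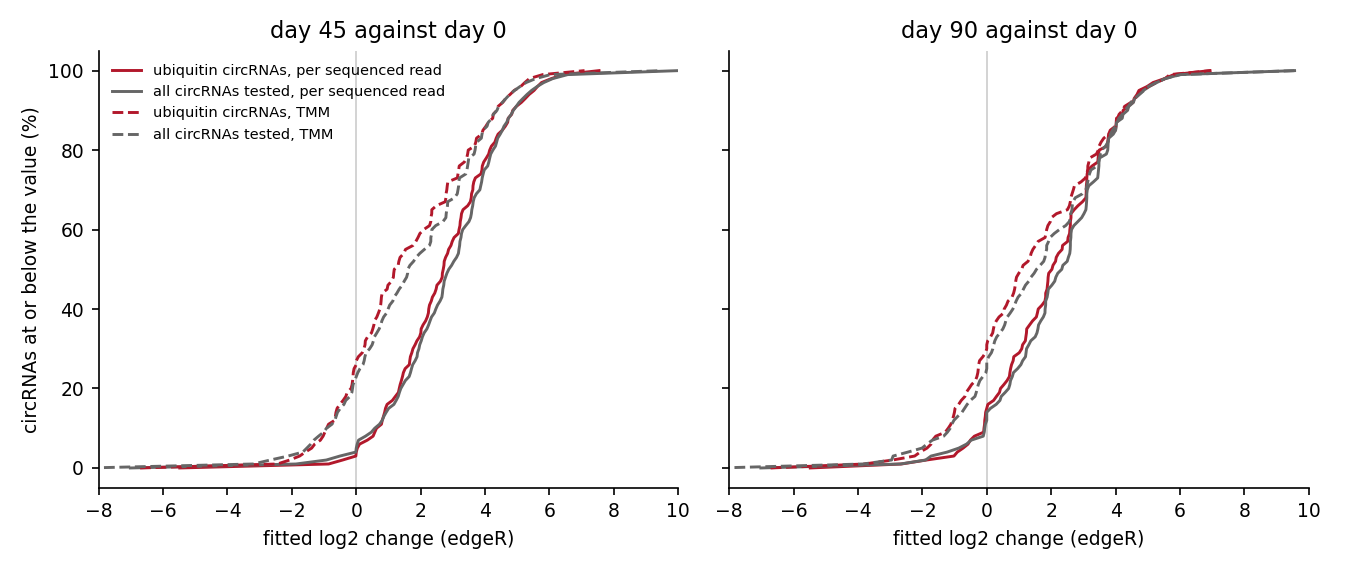
Cumulative distribution of the fitted log2 change (edgeR) of the 409 tested ubiquitin circRNAs (red) and of all 12498 tested circRNAs (grey), for day 45 against day 0 (left) and day 90 against day 0 (right), per sequenced read (solid) and with TMM factors (dashed). Per sequenced read the red curve lies close to the grey one, with medians of 2.70 and 2.87 at day 45 and 2.02 and 2.33 at day 90. TMM moves both to the left, to medians of 1.18 (red) and 1.60 (grey) at day 45 and 1.08 and 1.54 at day 90.

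The substrate receptors of cullin ligases held the most abundant circRNA of the family. The F-box genes gave 127 circRNAs of 35 genes and 6059 reads, and of 43 tested 22 (51.2%) rose by day 45 and 14 (32.6%) by day 90, against the background of 40.9% and 21.7%. Their median log2 change was 2.90 and 2.62, against 2.87 and 2.33 over all circRNAs. Shares of rises by role or gene list, here and below, were not matched for reads. At day 45, 91 of 108 family circRNAs rose with at least 50 reads, and 157 of 409 with at least 10. The share of all circRNAs with at least 50 reads is not given here, so the former count is no result about the family. Reads per circRNA were 47.7 for the F-box genes, 32.3 for RNF, 10.3 for USP and UBR, 9.95 for the cullins and 5.53 for the U-box ligases. The part of read depth in the shares was not tested. FBXW7 encodes the receptor that sends cyclin E, MYC and NOTCH to destruction, and circFBXW7:E3-E2, with 1814 reads, is its main circle. It stood at 0.489, 0.415 and 0.257 RPM at day 0, at 1.25, 1.11 and 1.34 RPM at day 45 and at 0.534, 0.931 and 0.829 RPM at day 90. It was at 1.26, 1.03 and 1.21 RPM at day 45 with IGF-1 and at 0.975, 0.774 and 1.03 RPM at day 90 with IGF-1. All later libraries lay above day 0. The log2 change was 1.67 ± 0.41 (SE) at day 45 (edgeR, adjusted p = 3.65e-04) and 0.98 ± 0.40 at day 90, where it did not pass (adjusted p = 0.0618, though it did pass without day 45 replicate 1 or day 90 replicate 1, at 0.98 and 1.19). It also passed at day 90 in DESeq2's Wald test, among circRNAs with at least 50 counts and with the day 90 read numbers in the order listed (adjusted p = 0.0103, 0.019 and 0.0499). With TMM the log2 change was −0.07 and −0.26, with adjusted p = 0.904 and 0.583. Its rise was thus below the median rise of all circRNAs on either scale. At day 0 it took 9.88% of the family's RPM, more than any other member, and 5.30% to 6.08% later.

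The other leading F-box circRNAs were scarce in stem cells. circFBXO7:E2-E2 comes from the gene of a receptor that works with parkin in the removal of mitochondria and is mutated in early-onset parkinsonism. It had 3, 7 and 7 reads at day 0, 89, 67 and 57 at day 45 and 39, 52 and 86 at day 90, with no overlap between day 0 and the later groups, and a log2 change of 3.72 ± 0.51 (edgeR, adjusted p = 2.83e-11) and 3.27 ± 0.51 (1.34e-08). circFBXW4:E5-E2, from a WD40-repeat F-box gene, had 1, 3 and 7 reads at day 0 and 43, 80 and 44 at day 45. Its log2 change was 3.93 ± 0.55 at day 45 and 3.34 ± 0.55 at day 90 (edgeR, adjusted p = 5.70e-11 and 9.60e-08).

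FBXL17, a leucine-rich-repeat receptor that checks the pairing of BTB proteins, showed the steepest rise of the abundant genes. circFBXL17:E5-E3 had 1, 1 and 2 reads at day 0, 41, 50 and 46 at day 45 and 31, 30 and 53 at day 90, a log2 change of 5.02 ± 0.64 and 4.62 ± 0.65 (edgeR, adjusted p = 7.87e-13 and 2.08e-10). circFBXL17:E6-E3 had 0, 1 and 0 reads at day 0, 31, 51 and 35 at day 45 and 28, 45 and 42 at day 90. Against that 1 read the ratio of RPM was 120.4 at day 45, with a 95% counting interval of 21.2 to 4797, and 109 at day 90, with 19.1 to 4336. Later libraries lay above all day 0 libraries for both. The calls of circFBXO7:E2-E2, circFBXW4:E5-E2 and both of these circFBXL17 at day 45 and day 90 also passed with TMM and with DESeq2 size factors. The most abundant FBXL17 circle was not among the 1755, because its transcript is absent from the annotation used, and it was matched to the gene by its exon ends: it had 1343 reads, 0, 2 and 3 of them at day 0, 221, 130 and 126 at day 45 and 56, 83 and 138 at day 90. Over all 11 FBXL17 circRNAs the gene stood at 0.0239 ± 0.0143 RPM (SD, n = 3) at day 0 and 1.98 ± 0.660 RPM at day 45, a log2 change of 6.29 ± 0.52 (edgeR on counts per gene, adjusted p = 6.61e-31).

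**Figure D3:**
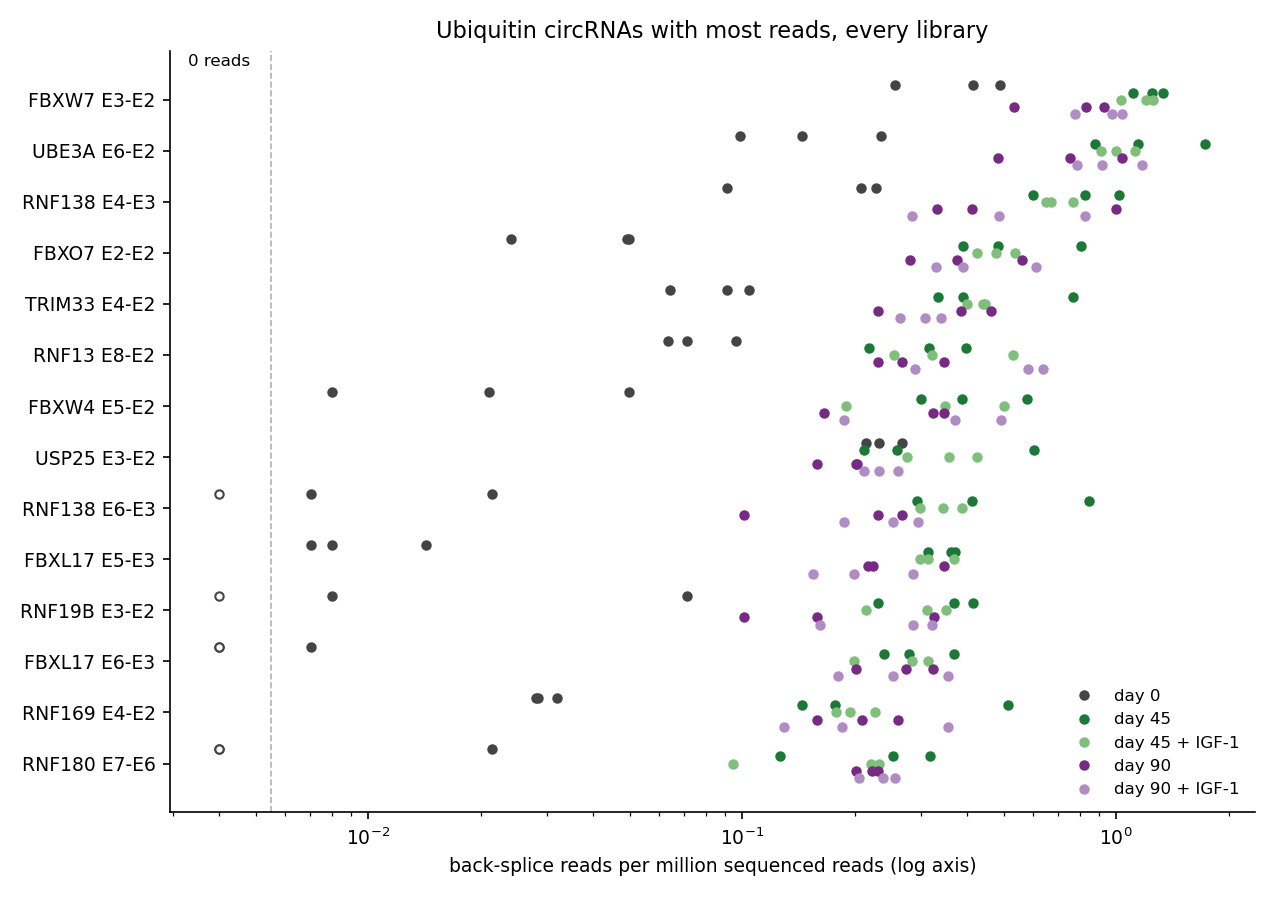
Level of 14 of the 15 ubiquitin circRNAs with most reads in each of the 15 libraries, in RPM on a log axis, with a row per circRNA, a point per library and colours for the groups, and open points left of the dashed line for libraries with 0 reads. In 13 of the 14 rows the 3 day 0 points lie to the left of all 12 later ones, and for circUSP25:E3-E2 they lie among them.

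Among the HECT ligases, 325 circRNAs of 13 genes held 4840 reads, and of 61 tested 23 (37.7%) rose by day 45 and 11 (18.0%) by day 90, where the background was 40.9% and 21.7%. circUBE3A:E6-E2 led them with 1666 reads. UBE3A is the ligase lost in Angelman syndrome, and in neurons only its maternal copy is active. The circle stood at 0.144, 0.0984 and 0.235 RPM at day 0, at 1.73, 1.14 and 0.880 RPM at day 45 and at 0.484, 0.751 and 1.04 RPM at day 90. It was at 1.13, 0.912 and 0.999 RPM and 1.17, 0.787 and 0.918 RPM with IGF-1 at day 45 and day 90. No later library reached down to day 0, and the log2 change was 2.96 ± 0.44 at day 45 (edgeR, adjusted p = 8.23e-10) and 2.24 ± 0.43 at day 90 (7.35e-06). With DESeq2 size factors it was 0.58 and 0.49 and did not pass (edgeR, adjusted p = 0.382 and 0.481). It was behind the FBXW7, USP25 and RNF138 circles in mean level at day 0 and ahead of all at day 45, at 1.25 RPM beside 1.23 RPM for circFBXW7:E3-E2, a difference smaller than the SD of either group.

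HERC1, a giant HECT protein with RCC1-like repeats, made 113 circRNAs with 655 reads in all, and summed per gene rose from 0.0337 ± 0.0170 to 0.573 ± 0.329 RPM (log2 change 4.02 ± 0.51, edgeR adjusted p = 7.08e-14).

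The RNF genes of RING ligases held 7257 reads in 225 circRNAs of 48 genes, the most of any role summed over the 15 libraries, though at day 0 the USP genes held more. Of 73 tested circRNAs 36 (49.3%) rose by day 45 and 24 (32.9%) by day 90, against a background of 40.9% and 21.7%. RNF138 encodes a ligase that clears the Ku proteins from broken DNA ends. circRNF138:E4-E3 stood at 0.208, 0.0914 and 0.228 RPM at day 0, at 1.02, 0.824 and 0.600 RPM at day 45 and at 0.332, 0.411 and 0.998 RPM at day 90. The longer circRNF138:E6-E3 had 0, 1 and 3 reads at day 0, 94, 57 and 43 at day 45 and 14, 32 and 41 at day 90. The later libraries of both were above day 0 throughout. The log2 change at day 45 was 2.21 ± 0.43 for the shorter and 5.59 ± 0.63 for the longer (edgeR, adjusted p = 6.08e-06 and 3.29e-16). At day 90 it was 1.72 ± 0.43 and 4.23 ± 0.66 (edgeR, adjusted p = 8.81e-04 and 1.11e-08). With TMM the shorter circle had 0.45 and 0.46 at day 45 and day 90 and did not pass (edgeR, adjusted p = 0.411 and 0.420), and with DESeq2 size factors it had −0.14 and −0.05. The longer circle passed under both scalings. For the shorter, without day 90 replicate 3, its highest day 90 library, the day 90 value was 1.08 and no longer passed.

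RNF13, a membrane-bound ligase of endosomes and lysosomes, gave circRNF13:E8-E2 with 12, 9 and 10 reads at day 0 and 35, 55 and 32 at day 45 (log2 change 2.01 ± 0.48, edgeR adjusted p = 2.62e-04). With TMM the change was 0.27 and did not pass (edgeR, adjusted p = 0.678), and with DESeq2 size factors it was −0.32. circRNF13:E8-E5, which shares its donor, had no read at day 0, 4, 10 and 7 at day 45 and 8, 4 and 10 at day 90, at least 7.20-fold and at least 6.94-fold higher, taking 3 reads over the day 0 group as the limit that a count of 0 allows. It passed per sequenced read (edgeR, adjusted p = 9.06e-05 and 1.83e-04) but not with DESeq2 size factors (0.151 and 0.0581). circRNF19B:E3-E2, from a RING-between-RING ligase of natural killer cells, had 1, 0 and 10 reads at day 0, almost all in replicate 3, and 46, 32 and 54 at day 45. Its log2 change was 3.61 ± 0.55 (edgeR, adjusted p = 3.87e-09), or 1.30 without passing with DESeq2 size factors (adjusted p = 0.125).

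circRNF169:E4-E2, whose gene product binds ubiquitin marks at DNA breaks, had 4, 4 and 4 reads at day 0 and 57, 20 and 26 at day 45, with replicate 1 far above the others (log2 change 3.18 ± 0.56, edgeR adjusted p = 2.97e-07). It did not pass with TMM, at 1.34 (edgeR, adjusted p = 0.0724), or with DESeq2 size factors, at 0.76. circRNF180:E7-E6 had 0, 0 and 3 reads at day 0, 14, 44 and 37 at day 45 and 28, 32 and 34 at day 90. The ratio of its RPM to day 0 was 32.6 (95% counting interval 10.8 to 161) at day 45 and 29.7 (9.84 to 146) at day 90. circRNF38:E7-E6 was at 0 in all 3 day 0 libraries and had 20, 20 and 27 reads at day 45 and 7, 14 and 26 at day 90, at least 23.0-fold and at least 14.8-fold higher (edgeR, adjusted p = 6.28e-11 and 3.96e-08). It had the highest such bound of the family's circRNAs that were absent at day 0 and named by the rule.

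TRIM ligases gave 104 circRNAs of 19 genes with 2076 reads, and of 26 tested 11 (42.3%) rose by day 45, while 5 (19.2%) rose and 1 (3.85%) fell by day 90, where the background was 40.9% higher at day 45 and 21.7% higher and 0.328% lower at day 90. circTRIM33:E4-E2 comes from a chromatin-bound ligase that acts on SMAD4 in TGF-beta signalling, and had 13, 13 and 9 reads at day 0, 85, 54 and 49 at day 45 and 32, 64 and 59 at day 90, with no overlap with day 0 (log2 change 2.51 ± 0.47 and 2.05 ± 0.47, edgeR adjusted p = 1.89e-06 and 2.32e-04). Both calls were lost with TMM, at 0.68 and 0.81 (edgeR, adjusted p = 0.287 and 0.201), and with DESeq2 size factors, at 0.09 and 0.30. TRIM2, a ligase that turns over the neurofilament light chain in neurons, had no read at day 0 in either of its leading circles. Both join exon 3 to exon 2 of a TRIM2 transcript and share the donor, while their acceptors lie 3 bases apart, so that reads could be split between them by the alignment and each count is uncertain. The circle with the upstream acceptor had 28, 13 and 13 reads at day 45 and 9, 18 and 21 at day 90, and that with the downstream acceptor 30, 18 and 13 and 0, 10 and 8. At day 45 they were at least 18.5-fold and at least 20.9-fold higher than at day 0 (edgeR, adjusted p = 1.21e-09 and 7.74e-10).

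circTRIM24:E7-E2, from the gene of a chromatin reader that also targets p53, was lower at day 90. It had 8, 9 and 2 reads at day 0, 15, 0 and 4 at day 45, 0, 1 and 2 at day 90 and 3, 4 and 3 at day 90 with IGF-1. Against the 3 reads at untreated day 90 the ratio of RPM to day 0 was 0.149 (95% counting interval 0.0283 to 0.508, edgeR adjusted p = 0.0285). The call rests on few reads and was lost without day 0 replicate 1 or 2 or without day 90 replicate 1 or 2, with fitted log2 changes of −2.34, −2.33, −2.10 and −2.63. It was also lost without a filter on low counts, with the replicate number as a block and in DESeq2's Wald test (adjusted p = 0.116, 0.0572 and 0.106). At day 45 its 3 libraries ranged from 0 to 15 reads, and the log2 change of 0.13 ± 0.72 did not pass (edgeR, adjusted p = 0.897). With TMM it was −1.76 and did not pass, and with DESeq2 size factors it passed as a fall, at −2.34 (edgeR, adjusted p = 0.0791 and 0.0131).

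UBR proteins, cullins, U-box ligases and E2 enzymes each held fewer reads than the roles above. Their shares of rises stand beside the same background of 40.9% at day 45 and 21.7% at day 90. The 6 UBR genes gave 137 circRNAs with 1417 reads, and of 32 tested 9 (28.1%) rose by day 45 and 4 (12.5%) by day 90. UBR1, the classical reader of N-terminal degradation signals, went from 0.0175 ± 0.00570 to 0.250 ± 0.113 RPM and UBR3 from 0.0444 ± 0.00805 to 0.325 ± 0.0827 RPM (SD, n = 3, counts per gene). Both rose (log2 change 3.77 ± 0.60 and 2.84 ± 0.50, edgeR adjusted p = 4.23e-09 and 1.22e-07). UBR3 no longer passed with TMM, at 0.67, and UBR1 with DESeq2 size factors, at 1.27 (edgeR, adjusted p = 0.284 and 0.122). The cullins gave 84 circRNAs of 7 genes with 836 reads, and 5 of 16 tested (31.2%) rose by day 45 and none by day 90. CUL5, the scaffold that takes SOCS-box receptors, went from 0.0685 ± 0.0211 to 0.326 ± 0.134 RPM (log2 change 2.22 ± 0.48, edgeR adjusted p = 1.41e-05), or −0.01 with TMM. Of 5 tested circRNAs of UBE4A and UBE4B, 3 (60%) rose by day 45 and none by day 90. UBE4B, which lengthens ubiquitin chains, went from 0.0217 ± 0.0245 to 0.229 ± 0.0705 RPM (log2 change 3.32 ± 0.59, edgeR adjusted p = 1.27e-07), and with TMM the change was 1.15 and did not pass (0.150). The E2 genes had 60 circRNAs of 20 genes with 1555 reads, and 12 of 22 tested (54.5%) rose by day 45 and 2 (9.09%) by day 90. Among the circRNAs matched by name UBE2G1 led them, with 452 reads on 7 circRNAs. UBE2Q2 had 1096 reads once the circRNAs matched by exon ends were added, and with these it went from 0.166 ± 0.0486 to 0.826 ± 0.326 RPM (log2 change 2.30 ± 0.41, edgeR adjusted p = 1.69e-07). With TMM the change was 0.06 and did not pass (edgeR, adjusted p = 0.909), and with DESeq2 size factors it was −0.27.

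The deubiquitinases had the most circRNAs, 663 of 40 USP genes with 6861 reads, and, next to the E2 enzymes, the lowest ratio of summed level to day 0 of the role groups at day 45. Of 131 tested, 36 rose and 1 fell by day 45 (27.5% and 0.763%), and 21 rose and 1 fell by day 90 (16% and 0.763%). The background was 40.9% and 0.256% at day 45 and 21.7% and 0.328% at day 90. Their summed level was 1.18 ± 0.175 RPM at day 0, 4.68 ± 1.5 RPM at day 45 and 3.13 ± 0.889 RPM at day 90 (SD, n = 3), ratios of 3.95 and 2.64, where the RNF group gave 8.10 and 5.32 and the E2 enzymes 3.95 and 2.56. USP circRNAs took 30% to 30.5% of the family's reads in the 3 day 0 libraries and 20.1% to 24% in the 12 later ones, with no overlap. The RNF share went the other way, from 14% to 19.3% at day 0 to 21.8% to 26.5% later, also without overlap. These shares add up within a library and so cannot move independently. USP25 alone held 7.22% to 11.8% of the reads at day 0 and 1.68% to 3.15% later. With USP25 left out of the count, the USP share was 20.9% to 25.1% at day 0 and 18.6% to 21.9% later, and the ranges overlapped.

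USP25 deubiquitinates signalling proteins of the innate immune response and proteins of the endoplasmic reticulum. circUSP25:E3-E2 was the second most abundant member at day 0 and did not follow the others. It stood at 0.232, 0.267 and 0.214 RPM at day 0, at 0.605, 0.260 and 0.212 RPM at day 45 and at 0.159, 0.202 and 0.202 RPM at day 90. With IGF-1 it stood at 0.426, 0.277 and 0.357 RPM at day 45 and at 0.212, 0.232 and 0.260 RPM at day 90. Its groups overlapped, and the log2 change was 0.58 ± 0.43 at day 45 (edgeR, adjusted p = 0.243) and −0.34 ± 0.44 at day 90 (0.557). Without day 45 replicate 1 the day 45 value was −0.01. Relative to other circRNAs it fell: with TMM the log2 change was −1.28 (edgeR, adjusted p = 0.00370) and −1.57 (3.09e-04). circUSP25:E18-E17, from the far end of the gene, had 4, 13 and 7 reads at day 0, 6, 6 and 11 at day 45 and 7, 11 and 13 at day 90, and was likewise level per sequenced read (log2 change −0.01 ± 0.61 and 0.29 ± 0.59). With TMM it passed as a fall at day 45, at −1.76, and not at day 90, at −0.96 (edgeR, adjusted p = 0.0205 and 0.296). Over all 36 USP25 circRNAs the log2 change was 0.52 ± 0.39 at day 45 and −0.27 ± 0.40 at day 90 (edgeR on counts per gene, adjusted p = 0.230 and 0.574).

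Per sequenced read, circUSP44:E5-E4 was the member that fell at both times. USP44 removes ubiquitin from histone H2B and takes part in the mitotic checkpoint. The circle had 8, 1 and 7 reads at day 0, 0 in all untreated day 45 and day 90 libraries, 2, 0 and 0 at day 45 with IGF-1 and 0 at day 90 with IGF-1. Most of the day 0 reads came from replicates 1 and 3. It was at least 5.18-fold lower at day 45 and at least 5.64-fold lower at day 90 (edgeR, adjusted p = 0.00535 and 0.00731), and neither fall passed in DESeq2's Wald test. Summed over its 4 circRNAs, the gene had 10, 2 and 7 reads at day 0, 0, 3 and 0 at day 45 and none at day 90. It was the single gene of the family that fell per sequenced read in either comparison (edgeR on counts per gene, adjusted p = 0.0390 and 0.00107). With TMM 8 genes of the family were lower at day 45 and 4 at day 90. circRNF220:E2-E2, negative with TMM at day 45 (edgeR, adjusted p = 0.0351), had 0, 0 and 5 reads at day 0, so the call rests on replicate 3. It had 18 reads over the 15 libraries, the others being in later ones.

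USP34, a deubiquitinase that acts on axin in Wnt signalling, showed the opposite layout, with 156 circRNAs and 1088 reads, of which the leading circle held 7.90%. Summed per gene it stood at 0.0586 ± 0.0236 RPM at day 0, 0.707 ± 0.179 RPM at day 45 and 0.570 ± 0.200 RPM at day 90 (log2 change 3.56 ± 0.46 and 3.26 ± 0.46, edgeR adjusted p = 3.91e-13 and 7.28e-11). USP3, which acts on histone H2A, had 21 circRNAs and 701 reads and went from 0.0721 ± 0.0271 to 0.510 ± 0.263 RPM (log2 change 2.81 ± 0.46, adjusted p = 9.85e-09). The USP3 change did not pass with TMM, at 0.56, or with DESeq2 size factors, at 0.24 (edgeR, adjusted p = 0.310 and 0.690).

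Summed over all circRNAs of a gene, 93 of 137 tested genes of the family rose and 1 fell by day 45 (67.9% and 0.730%, against a background of 63.4% and 0.385% of 4934 genes), and 69 rose and 1 fell by day 90 (50.4% and 0.730%, against 45.4% and 0.669%). More genes than circRNAs passed, in share, in the family and in the background alike. Genes differed widely in how many circles carried these reads. Among the 77 genes with at least 100 reads the leading circRNA held a median of 50.4% of the reads, against 51.2% over 1907 genes of all kinds, and the median number of circRNAs was 13 in both sets. circFBXW7:E3-E2 held 99.1% of the FBXW7 reads, circUBE3A:E6-E2 97.5% of those of UBE3A and circTRIM33:E4-E2 94.4% of those of TRIM33. HERC1, at 35.7%, and UBR3 and UBR1, at 12.7% and 15.2%, lay at the other end with USP34. In all, 49 of the 190 genes had a single circRNA, 28 had at least 20 and 7 at least 50.

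**Figure D4:**
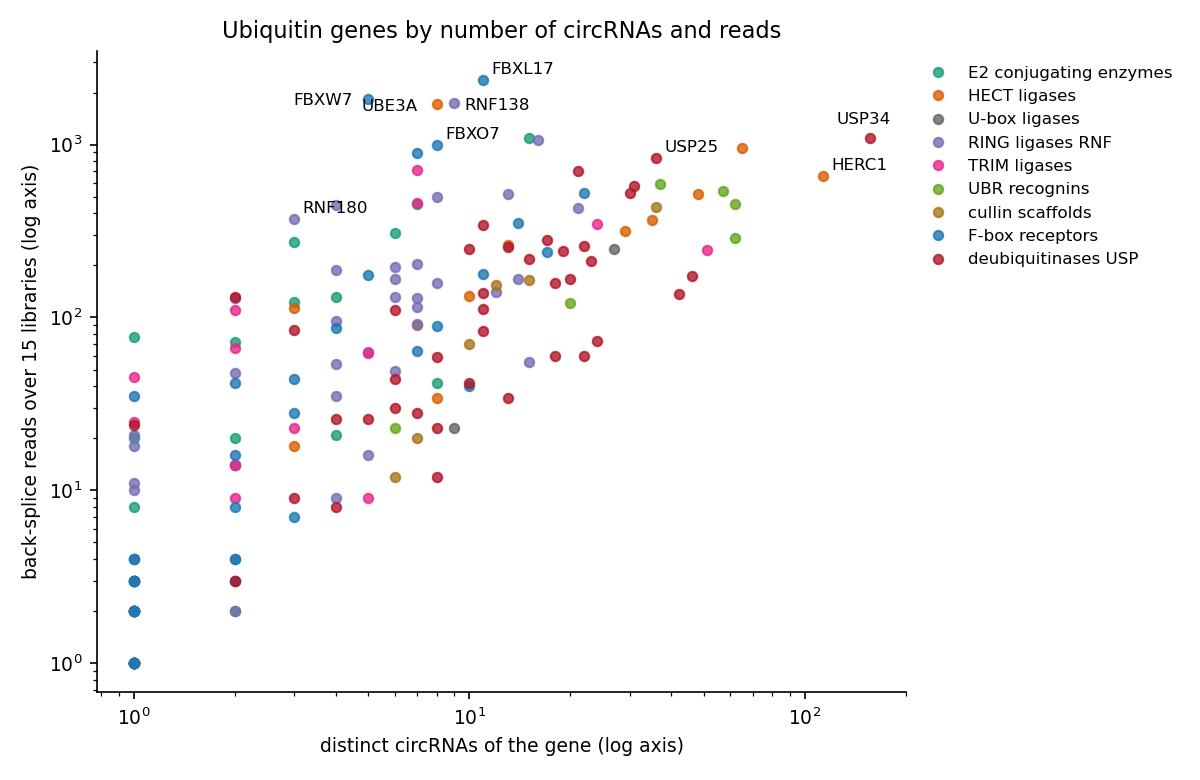
Each point is a gene of the family, by the number of its distinct circRNAs (log axis) and its back-splice reads over the 15 libraries (log axis), coloured by role. FBXW7, UBE3A and RNF138 have 1831, 1708 and 1731 reads on 5, 8 and 9 circRNAs, and USP34 has 1088 reads on 156.

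Whether the choice of circle within a gene changed was asked among the circRNAs matched by transcript name. Taken were the genes whose 2 leading circRNAs of this kind each had at least 100 reads, a rule set after the data were seen. Circles matched by exon ends did not enter. The FBXL17 pair thus leaves out the most abundant circle of that gene, with 1343 reads, and UBE2Q2 was not compared. The share of the lesser circle in the pair does not depend on library size or scaling. Of 10 such genes 9 had reads in every library, and the 3 day 0 libraries were compared with the 12 later ones by an exact permutation test (two-sided, 455 arrangements, smallest possible p = 0.0022), with Benjamini-Hochberg adjustment over the 9. For RNF138 the longer circle held 0%, 7.14% and 8.57% of the pair at day 0, of 75 reads in all, and 21.1% to 45.4% later with a median of 33.5%. It was higher in 12 of 12 later libraries (exact permutation p = 0.0022, adjusted 0.00989). With same-numbered untreated and IGF-1 libraries of a day averaged first, since those of day 45 deviated together, 6 later values were left, and p was 0.0119, the smallest of 84 arrangements, or 0.0536 adjusted over the 9. For FBXL17 the share was 0%, 50% and 0% of 5 reads at day 0 and 35% to 60% later (exact permutation p = 0.0176, adjusted 0.0527, or 0.0357 and 0.107 on the averaged libraries), a difference that shrank from 32.3 to 24 percentage points without day 0 replicate 1 or 3. FBXO7, FBXW4, RNF13, UBE2G1, USP14 and USP25 had adjusted p from 0.618 to 0.998 in the exact permutation test. For USP25 the share was 12.1% to 25.5% at day 0 and 8.22% to 31.5% later, a range that leaves room for a change in either direction. TRIM2 had no read at day 0 and could not be compared.

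**Figure D5:**
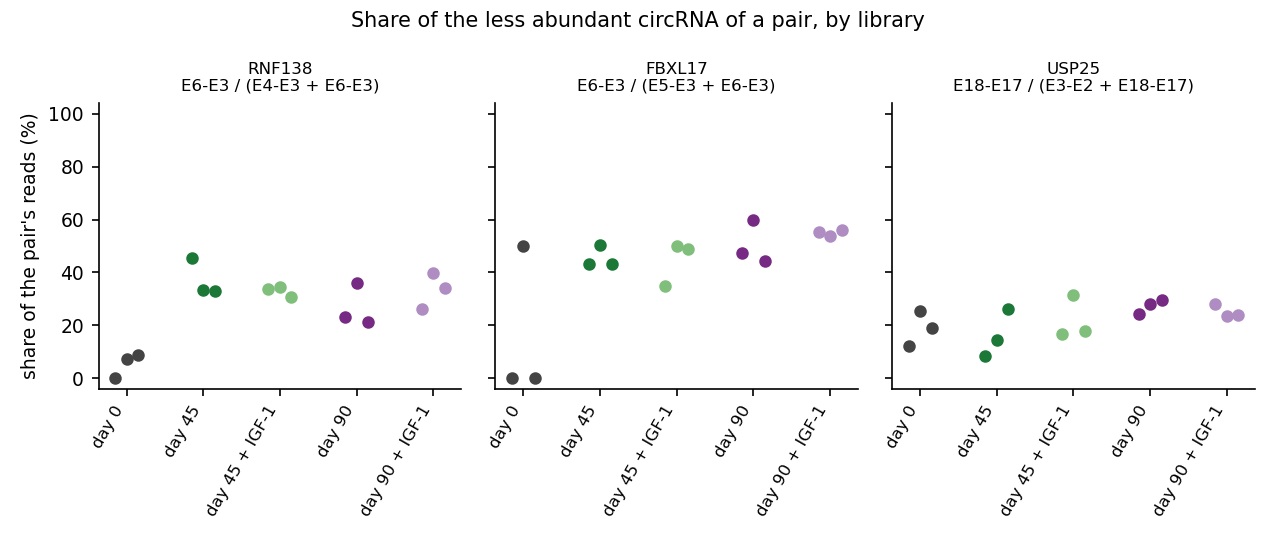
Share of the lesser of the 2 leading circRNAs matched by transcript name in their summed reads, in percent, for RNF138, FBXL17 and USP25. There is a point per library, with colours for the groups. The most abundant FBXL17 circle, matched by exon ends, is not in the pair. For RNF138 the day 0 points are at 0% to 8.57% and the later ones at 21.1% to 45.4%, and for USP25 the groups overlap.

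Between untreated day 45 and day 90, none of the 409 circRNAs passed (edgeR, smallest adjusted p = 0.252, 36 with an unadjusted p under 0.05), where 10 of all circRNAs did (0.08%). Their median log2 change was −0.63, and that of all circRNAs −0.61. The smallest p belonged to the TRIM2 circle with the downstream acceptor, at 0.163 ± 0.0955 RPM at day 45 and 0.0415 ± 0.0373 RPM at day 90.

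IGF-1 gave no passing member either. At day 45 none passed between treated and untreated cultures (edgeR, smallest adjusted p = 0.384, 17 with an unadjusted p under 0.05), against 2 of all circRNAs (0.016%), and at day 90 none passed (smallest adjusted p = 1, 9 unadjusted), against 1 of all (0.008%). No member passed the test of a difference in the IGF-1 effect between the days (edgeR, smallest adjusted p = 0.704, 12 unadjusted), and no circRNA did (0%). The member nearest the threshold at day 45, named after its values were seen, was circRNFT2:E3-E2, with 7, 5 and 5 reads in untreated and none in treated libraries. At day 90 it was circRNF150:E4-E2, with none in untreated and 6, 3 and 3 reads in treated libraries. For the abundant circles the intervals were wide: the log2 change with IGF-1 was −0.08 ± 0.39 (SE) at day 45 and 0.28 ± 0.39 at day 90 for circFBXW7:E3-E2, and −0.30 ± 0.39 and 0.34 ± 0.39 for circUBE3A:E6-E2, so that moderate changes would not have been detected.

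In exon layout the circles of the family lay close to the others. Their exons are given by the annotation between the deposited ends, since the inside of a circle was not sequenced through. They held a median of 4 exons, as did all others, with 62.4% on 2 to 5 exons (64.4% of others) and 3.93% on a single exon (4.55%). The median spliced length was 554 bases, against 515. Of the junctions, 99.7% lay at AG and GT splice sites on the genome. In 90.7% all bases were coding, against 87.7%, and 8.76% held the annotated start codon, against 10.3%. The acceptor was exon 2 by name in 19.4% of the circRNAs and in 43.4% of the 53 with at least 100 reads, and 21.7% and 39.0% of the others. Introns next to the abundant circles were long: their median was 12359 bases upstream and 10103 downstream, against 4317 and 3563 over the whole family. The other circRNAs showed the same, with 11669.5 and 10038 bases for those with at least 100 reads and 5395 and 4454 for all of them. Ends were shared often, with 409 of 893 acceptors and 416 of 926 donors used by more than 1 circRNA, up to 15 for an acceptor and 11 for a donor. CircRNAs that share an end are not independent of each other.

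Within the leading circles the exons differ in what they encode. circFBXW7:E3-E2 covers 2 exons and 620 bases including the start codon of the annotated transcript used, and its longest reading frame from an ATG runs over 185 codons, across the back-splice, to a stop. circUBE3A:E6-E2 covers 5 exons and 535 bases, of which 2 are coding in the annotated transcript used. In that transcript it is built almost wholly from exons upstream of the coding sequence, and other UBE3A transcripts were not examined. circFBXO7:E2-E2 and circTRIM33:E4-E2, of 295 and 397 bases, are coding throughout without the start codon. circRNF138:E4-E3 and circFBXW4:E5-E2, of 282 and 510 bases, are multiples of 3 in length and hold a frame with no stop around the circle. Translation was not measured.

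The rest of the pathway was taken from lists of genes with other names, and its shares are to be read against the same 40.9% of all circRNAs higher at day 45 and 21.7% at day 90. Of the E1 enzymes 8 of 10 had circRNAs, led by UBA2 with 2413 reads, and 10 of 30 tested circRNAs (33.3%) rose by day 45 and 3 (10%) by day 90. Of other HECT ligases 26 of 55 (47.3%) rose by day 45 and 14 (25.5%) by day 90. Of other RING ligases it was 79 of 182 (43.4%) and 37 (20.3%), and HUWE1 and BIRC6 led these lists with 1124 and 1847 reads. Cullin adaptors and regulators had 28 of 68 (41.2%) and 14 (20.6%), with KLHL8 at 2041 reads. The anaphase-promoting complex had 4 of 11 (36.4%) and 1 (9.09%), and deubiquitinases outside the USP class 6 of 19 (31.6%) and 2 (10.5%). Subunits of the proteasome had 9 of 22 (40.9%) and 5 (22.7%), and ubiquitin shuttle factors 50 of 81 (61.7%) and 29 (35.8%), led by UBAP2 with 4012 reads. Per sequenced read no circRNA of these lists fell in either comparison. With TMM 1 of the other RING ligases was lower at day 45 and 2 at day 90, and with DESeq2 size factors 2 and 3 of them and 1 cullin adaptor at day 45.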

How the data were processed

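Total RNA, depleted of ribosomal RNA, was sequenced in 15 libraries of H9 cells (5 groups of 3 replicate cultures, paired 100-base stranded reads). The authors searched the reads for back-splice junctions with PTESFinder against GENCODE v19 transcripts on hg19 and deposited a raw count of reads per circRNA and library, neither normalised nor pooled. The submitters' processing notes also name TopHat2 2.0.10, HTSeq 0.6.1, FastQC 0.10 and bedtools 2.17, without saying for which files. The amplicon libraries of the series were not used here. The number of columns of other samples in the table was 0.

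RPM are counts per 1e+06 sequenced reads, the read numbers being those in the study's quality table. There, day 90 replicate 1 has 2 entries and replicate 2 has none, and the mean of the entries was used for both. Genes were assigned with GENCODE 44 on GRCh37: 48401 circRNAs by transcript name, 6763 by exon ends, 187 matched several genes and 20 none. The family holds circRNAs matched by transcript name, while values per gene also hold those matched by exon ends (271 circRNAs, 5268 reads).

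Counts of circRNAs with at least 10 reads were tested with edgeR 4.0.16 in R 4.3.3 (glmQLFit, glmQLFTest). The 15 libraries were fitted together with 1 mean per group, sequenced reads as library sizes and no block, with Benjamini-Hochberg adjustment over all 12498 circRNAs, or over 4934 genes, at 0.05. Common dispersion was 0.179. Standard errors are the log2 change over the square root of F. The test was checked on simulated counts. Shares were compared with exact permutation tests (scipy 1.17.1, Python 3.11.15). Alternatives were TMM factors, DESeq2 1.42.0 size factors and Wald test, the replicate number as a block (over all libraries or, added after the data were seen, within day 45), a minimum of 50 counts or none, other read numbers for day 90, members also by exon ends, and each library left out in turn.

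A count of 0 over a group of 3 libraries allows up to 3 reads, or 0.00692 to 0.0079 RPM. Without molecular identifiers, such limits and all intervals cover counting error only. Nothing in the labels says more of the replicates than that cells were plated in triplicate, so p-values measure the spread between these cultures. No pair of libraries agreed within sampling noise. Deviations from the group means of same-numbered untreated and IGF-1 libraries correlated at 0.121 to 0.288 at day 45. Differently numbered ones there ran from −0.230 to 0.125, so the ranges met. The day 45 libraries were taken as paired in the averaged shares and the added block, while the main test had no block. At day 90 the same-numbered values ran from −0.00147 to 0.156, and same-numbered libraries of no other pair of groups reached over 0.1.

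The circRNAs named are the 15 with most reads, those with the 5 largest rises past the threshold with at least 20 reads and no overlap, those that fell with TMM, the 15 genes with most reads, the 5 with most circRNAs and the first gene of each role, and any further one is marked as picked with its values known. The members, the gene lists and this rule were chosen with earlier results of these data known. Some genes and a junction that this rule names are not reported here.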

Additional observations from a re-analysis of the deposited data

How the results depend on the processing

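Direction and calls rested most on how libraries were scaled. With TMM factors 27 of 409 family circRNAs passed at day 45 and 28 at day 90 in place of 158 and 83, and 28 and 20 of 137 genes in place of 94 and 70. Of these genes 20 were higher and 8 lower at day 45, and 16 higher and 4 lower at day 90. Of all 4934 genes, 541 were then higher and 163 lower at day 45, and 563 higher and 181 lower at day 90. With DESeq2 size factors 19 and 18 circRNAs and 23 and 21 genes of the family passed. Of these circRNAs 11 were higher and 8 lower at day 45, and 11 higher and 7 lower at day 90. Of these genes 13 were higher and 10 lower at day 45, and 13 higher and 8 lower at day 90. Of all 12498 circRNAs, 321 were then higher and 189 lower at day 45, and 360 higher and 194 lower at day 90. Of all 4934 genes, 381 were higher and 234 lower at day 45, and 387 higher and 237 lower at day 90. Without a filter 98 of 1755 family circRNAs passed at day 45 and 50 at day 90. With at least 50 counts 91 of 108 passed at day 45, where fewer circRNAs were tested. The shares of all circRNAs under these filters are not given here. The replicate numbers did not pair libraries of different days: the 30 correlations between libraries of the same number ran from −0.122 to 0.288, and the 5 over 0.1 were all between untreated and IGF-1 libraries of a day. With a block within day 45, 0 circRNAs passed for IGF-1 at day 45 (13 at an unadjusted p under 0.05) and 0 for its difference between days. With the replicate number as a block, 131 circRNAs rose and 1 fell at day 45 and 68 rose and 1 fell at day 90, circTRIM24:E7-E2 no longer passing (log2 change −2.47). Leaving out each library in turn gave 110 to 160 and 50 to 92 circRNAs and 81 to 96 and 52 to 79 genes at day 45 and day 90, the 50 being without day 0 replicate 2, and 0 circRNAs each time between day 45 and day 90, for IGF-1 and for its difference between days. With circRNAs matched by exon ends the family's share was 3.71%, 3.57%, 3.61%, 3.48% and 3.45% in the 5 groups, from day 0 to day 90 with IGF-1.

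Changes of sign came mostly from scaling. With TMM and with size factors, the log2 change of circFBXW7:E3-E2 was −0.068 and −0.66 at day 45 and −0.26 and −0.76 at day 90, that of circUSP25:E3-E2 −1.28 and −1.87 at day 45, that of circTRIM24:E7-E2 −1.76 and −2.34 at day 45 and that of circUSP25:E18-E17 −0.96 and −1.47 at day 90. With size factors alone it was −0.14 and −0.055 for circRNF138:E4-E3 at day 45 and day 90 and −0.32 for circRNF13:E8-E2 at day 45. Summed per gene, FBXW7 had −0.50 and −0.82 at day 45 and −0.60 and −0.87 at day 90, UBE2Q2 −0.090 and −0.36 at day 90, USP25 −1.75 and −2.07 at day 45, and CUL5 −0.013 and −0.33 at day 45 and −0.22 and −0.49 at day 90. With size factors alone UBE2Q2 had −0.27 and RNF13 −0.23 at day 45. At day 45, leaving out each library in turn gave −0.29 to 0.48 for circUSP25:E18-E17 (0.022 with the block), −0.014 to 0.85 for circUSP25:E3-E2 and −1.69 to 0.73 for circTRIM24:E7-E2, the lowest of the latter 2 being without day 45 replicate 1. Of the shares within a gene, the difference ran from −7.67 to 17.3 percentage points for FBXW4 (lowest without day 0 replicate 2), −3.58 to 5.51 for UBE2G1 (without day 0 replicate 1), −14.4 to 17.8 for USP14 and −2.77 to 2.23 for RNF13 (both without day 0 replicate 2). None of these 4 had passed. Apart from the scaling, the cause was not tested. At day 0 a library had at most 623 reads of the family, so a circRNA with few reads there could be absent or merely missed.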

Other observations

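Circles of the same gene families also occur among circRNAs whose transcript is missing from the annotation used, and these were outside the counts of family circRNAs above and within the values per gene. The 271 of them held 5268 reads. UBE2Q2, an E2 enzyme, had circUBE2Q2:E5-E3 with 633 reads, at 0.0808 ± 0.0383 RPM at day 0, 0.411 ± 0.0783 RPM at day 45 and 0.274 ± 0.0953 RPM at day 90 (SD, n = 3). A circle from USP7, the deubiquitinase of MDM2 and p53, joined exon 11 to exon 8 and went from 0.0198 ± 0.00501 RPM at day 0 to 0.109 ± 0.00755 RPM at day 45. A circle from FBXL5, the iron-sensing receptor of the iron regulatory proteins, joined exon 10 to exon 2 and went from 0.0352 ± 0.0184 to 0.139 ± 0.0271 RPM. Against day 0, all of these 3 rose by day 45 per sequenced read (edgeR, adjusted p = 1.33e-05, 0.00148 and 0.00543). Their log2 changes were 2.33 ± 0.47, 2.42 ± 0.66 and 1.96 ± 0.60 (SE), below the median of 2.87 over all circRNAs. Their values with TMM or DESeq2 size factors are not given here.

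Frames with no stop around the whole circle, in circles whose length is a multiple of 3, were found by sequence in circRNF19B:E3-E2 (348 bases), circUSP44:E5-E4 (315 bases) and both leading TRIM2 circles (420 and 423 bases). These are properties of the annotated exons, and no read or protein in the files bears on whether they are used.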
